A study of Ovis aries with 15 samples.

Results

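Chemokines, interleukins and the tumour necrosis factor (TNF) family are the signalling proteins, with their receptors, through which immune and stromal cells recruit and instruct each other. Members were all probe sets of the array whose only annotated gene symbol began with CCL, CXCL, CCR, CXCR, TNFSF, TNFRSF or IL followed by a number, and a gene with several was represented by the one whose log2 signal averaged highest across all 15 arrays. This gave 82 genes on 108 probe sets, of 9155 genes that the array named through a probe set with 1 symbol. They comprised 25 chemokine ligands, 8 chemokine receptors, 20 interleukins, 19 interleukin receptors or binding proteins, 3 TNF ligands and 7 TNF receptors.

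Gene expression was measured in the longissimus dorsi (LD), a long muscle of the back, of cross-bred sheep of Dorset, Suffolk and Rambouillet stock. There were 5 stages with 3 animals and 3 arrays each. They were fetal muscle at 80, 100 and 120 d of development, newborn lambs at 150 d, which were 1 to 3 d old, and young lambs at 230 d. By the study, the young lambs were about 3 months old, as all stages count days of development and not days after birth. All animals were untreated and different animals were sampled at each stage. By the methods of the study they were male except for 1 female at 100 d and 1 at 120 d, and the labels do not say which. The array carried probes for cattle genes and was hybridised with ovine RNA, and how well each sheep transcript bound its probes was not tested. Of the member symbols, 72 were found among the named genes of a sheep assembly. CCL3, CCL4 and CCL14 were among those not found. The whole muscle was sampled, so that fewer cells of a type and less RNA per cell cannot be told apart.

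Chemokines bind G protein-coupled receptors and guide migrating cells, and the CXCL12 receptor CXCR4 is known from mouse embryos to guide muscle progenitors into the limbs. Interleukins act through receptor chains that mostly signal by JAK kinases and STAT factors, or, for the interleukin-1 family, by MYD88 and IRAK kinases. Receptors of the TNF family recruit TRAF adaptors or death domain proteins and feed into NF-kappaB and cell death. In skeletal muscle several members are made by the fibres themselves, IL15 among them, and others by resident macrophages, endothelium or connective tissue.

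Few members gave a strong signal, and more of them did so after birth. A MAS5 signal is a linear measure of brightness with each array scaled to a mean of 200, and a signal under 50 was taken as too low to measure a fold change. The number of members at 50 or more on an array, of 82, was 17 to 26 at 80 d and 23 to 28 at both 100 d and 120 d. After birth it was 27 to 32 at 150 d and 32 to 43 at 230 d. The arrays at 230 d therefore all lay above those of the fetal stages. Over all named genes the share at 50 or more was 69.0% to 74.7% on every array, with no such order. The named genes were brighter, with a median signal of 133.3 against 27.0 for the members. A set of genes as dim as the members was not compared. Of the 82 members, 9 reached 50 on all 15 arrays (CXCL12, IL33, IL6R, IL13RA1, IL17RC, TNFRSF1A, TNFRSF12A, TNFRSF21 and TNFRSF25) and 24 on none.

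**Figure D1:**
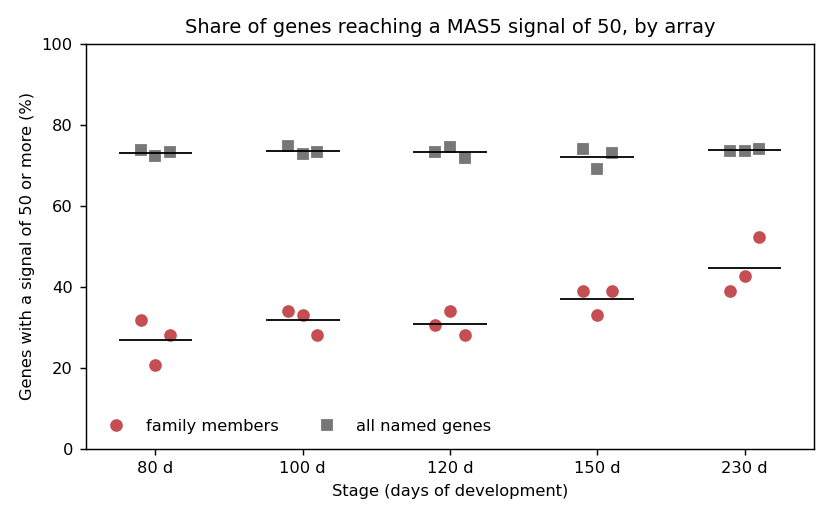
The share of genes with a MAS5 signal of 50 or more (%, y axis) on each array, by stage (x axis), for the 82 family members (circles) and all named genes (squares); bars are stage means of 3 arrays. The members' share was highest on the arrays at 230 d, where 32 to 43 members reached 50, while that of all named genes stayed between 69.0% and 74.7%. The named genes had a higher median signal (133.3) than the members (27.0).

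A member was tested when its signal reached 50 on at least 3 arrays, which 44 of 82 did (53.7%), against 82.4% of all named genes. The 38 members not tested included the interleukins IL2, IL5, IL6, IL12A and IL12B, the neutrophil chemokine CXCL8, the interferon-induced chemokines CXCL10 and CXCL11, and the receptors CCR3, CCR4, CCR9 and CXCR6. Their highest signal on any array was 94.4, for the interleukin-1 antagonist IL1RN. A low signal from cattle probes was not read as absence of the transcript. IL16 was not tested by the probe set chosen for it, although another of its probe sets passed and was not called in any comparison.

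After birth 14 of the 44 tested members differed from the fetal stages, 7 higher and 7 lower. Those higher were the chemokine ligands CCL3, CCL4 and CCL14, the receptor CXCR5 and the interleukins IL10, IL17A and IL34. Of these, CCL4, CXCR5, IL10 and IL17A reached 50 on postnatal arrays only. They entered the test through the stages where they were high, so their calls are no support for a rise. They are part of the counts, share and median given below. Those lower were the ligands CCL21, CXCL12 and CXCL14, the chemokine receptor CXCR4, the interleukin receptor IL13RA1 and the TNF receptors TNFRSF21 and TNFRSF25. The comparison set the mean of the 150 d and 230 d stages against the mean of the 3 fetal stages in limma's moderated test over all 15 arrays, called at a Benjamini-Hochberg adjusted p under 0.01. The share called was 31.8% of the tested members, against 34.5% of all 15998 tested probe sets (13.3% higher and 21.3% lower), so the family was called about as often as the array as a whole. Among the 12 chemokine ligands tested 6 were called, among 4 chemokine receptors 2, among 11 interleukins 3, among 11 interleukin receptors 1 and among 5 TNF receptors 2. The median log2 fold change was 0.22 over the tested members and -0.13 over all tested probe sets. Signals did not overlap between postnatal and fetal arrays for 4 members (CXCL12, CXCR4, TNFRSF21 and TNFRSF25, all lower after birth), against a background of 17.3% (10.5% lower).

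**Figure D2:**
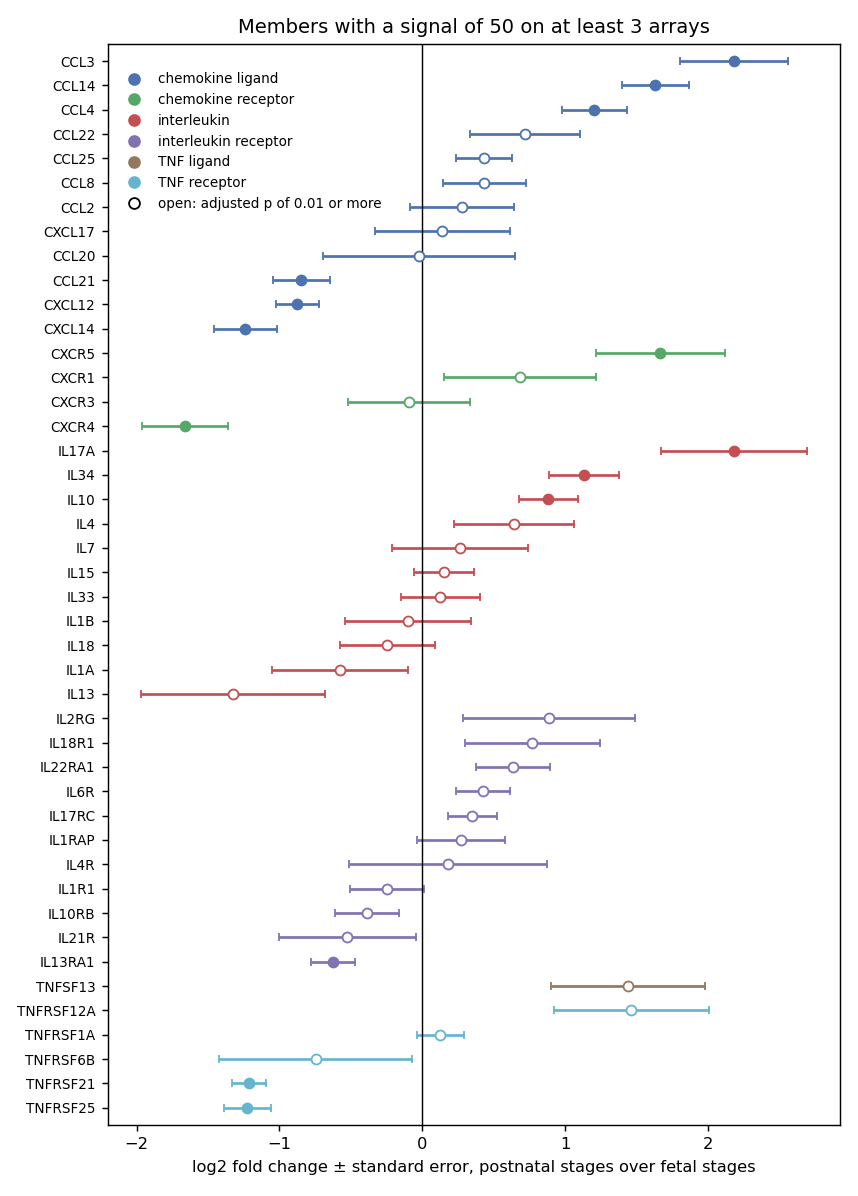
Log2 fold change with its standard error (x axis) of the mean of the 2 postnatal stages over the mean of the 3 fetal stages for the 44 tested members (y axis), coloured by role and ordered by size within it; filled points had an adjusted p under 0.01. The 14 filled points split into 7 on each side of 0, from CCL3 at 2.18 to CXCR4 at -1.66, and all 3 filled interleukins lie to the right. Of the points to the right, CCL4, CXCR5, IL10 and IL17A passed the filter only through postnatal arrays.

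Of the inflammatory CC chemokines, CCL3, which attracts monocytes and T cells, was higher after birth. CCL3 signals were 196.7, 75.5 and 35.8 at 80 d, 180.8, 139.8 and 122.5 at 100 d, 283.0, 233.9 and 116.2 at 120 d, 846.8, 260.2 and 282.7 at 150 d, and 770.5, 850.7 and 1171.4 at 230 d. All 230 d arrays lay above every fetal array, while at 150 d 2 arrays fell within the upper range of the fetal ones. The postnatal stages were 4.54-fold higher than the fetal stages (log2 fold change 2.18, SE 0.38, limma adjusted p = 0.00041), a call kept under all 22 other settings and left-out arrays. Between 230 d and 120 d the log2 fold change of CCL3 was 2.21 and its adjusted p of 0.014 missed the threshold. The other 2 probe sets of CCL3 stayed too low to test.

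CCL4, a close relative of CCL3, was low at every fetal stage and reached 50 at 230 d only. Its signals were 33.4, 19.6 and 13.9 at 80 d, 31.8, 23.9 and 13.9 at 100 d, 15.9, 29.2 and 19.7 at 120 d, 37.4, 33.3 and 35.1 at 150 d, and 63.1, 64 and 77.8 at 230 d. The 230 d arrays lay above all others. CCL4 was at least 1.36-fold higher at 230 d than at 120 d, taken against 50 (fitted log2 fold change 1.70, SE 0.35, adjusted p = 0.0038), and that call was lost without 120 d replicate 1 (log2 fold change 1.503, adjusted p = 0.017) or 120 d replicate 3 (1.66, adjusted p = 0.016), and with a trend and robust prior in eBayes (adjusted p = 0.029). With any 230 d array left out, CCL4 no longer passed the filter. The postnatal stages were also called higher than the fetal stages (adjusted p = 8e-04), with both means under 50 and so with no fold. CCL4, CXCR5, IL10 and IL17A reached 50 on 5 arrays or fewer, so that they entered the test only through the stages where they were high and had to differ. They make up 4 of the 15 members called in any comparison.

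CCL14, a chemokine that circulates in human plasma, was higher after birth and differed stepwise between the fetal stages, though no such step passed the test. CCL14 signals were 20.2, 36.1 and 37.0 at 80 d, 83.4, 84.4 and 54.1 at 100 d, 188.4, 124.2 and 251.6 at 120 d, 101.9, 169.6 and 200 at 150 d, and 392.6, 240.0 and 418.3 at 230 d. The arrays of 80, 100 and 120 d did not overlap with each other, and those of 150 d overlapped with those of 120 d. CCL14 was 3.10-fold higher in the postnatal than in the fetal stages (log2 fold change 1.63, SE 0.23, adjusted p = 9.9e-05) and changed over the 5 stages in the moderated F test (adjusted p = 7.5e-05). Both calls held under all 22 other settings. The fetal steps were not called, with log2 fold changes of 1.27 at 100 d against 80 d (adjusted p = 0.27) and 1.32 at 120 d against 100 d (adjusted p = 0.3).

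CCL21, made by lymphatic endothelium to draw in cells that carry the receptor CCR7, was highest in mid and late fetal muscle. Its signals were 83.8, 54.4 and 60.2 at 80 d, 332.8, 331.9 and 244.3 at 100 d, 319.1, 190.5 and 264.2 at 120 d, 124.3, 155.1 and 158.2 at 150 d, and 66.1, 38.3 and 93.0 at 230 d. Each of the 100 d and 120 d arrays lay above all arrays of the other stages. CCL21 was 4.62-fold higher at 100 d than at 80 d (log2 fold change 2.21, SE 0.31, adjusted p = 0.0091) and 4.09-fold lower at 230 d than at 120 d (log2 fold change -2.03, SE 0.31, adjusted p = 0.00062). The first call was marginal, since leaving out any array but 230 d replicate 2 or 3 took its adjusted p to between 0.012 and 0.063, at log2 fold changes of 2.08 to 2.39. The second was kept whichever array was left out. CCL21 was also lower in the postnatal than in the fetal stages (1.80-fold, adjusted p = 0.004), a call lost without 150 d replicate 1 or with quantile normalization (log2 fold change -0.75), with an adjusted p of 0.011 in both cases.

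The ligand CXCL12, a stromal chemokine that retains and guides progenitor cells, and its receptor CXCR4 were both lower after birth. CXCL12 signals were 256.2, 237.0 and 231.3 at 80 d, 228.7, 259.7 and 231.1 at 100 d, 204.8, 233.8 and 224.0 at 120 d, 93.8, 128.6 and 136.8 at 150 d, and 139.6, 191.4 and 96.6 at 230 d. The 9 fetal arrays were close to each other and none overlapped with the 6 postnatal arrays. CXCL12 was 1.83-fold lower in the postnatal than in the fetal stages (log2 fold change -0.88, SE 0.15, adjusted p = 0.00042). At 150 d against 120 d alone its log2 fold change was -0.90, with an adjusted p of 0.016 that missed the threshold.

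CXCR4 signals were 163.9, 211.9 and 174.2 at 80 d, 186.2, 262.4 and 224.7 at 100 d, 214.3, 255.4 and 154.8 at 120 d, 112.6, 71.8 and 92.6 at 150 d, and 91.7, 17.1 and 58.0 at 230 d. Here too no postnatal array reached the lowest fetal array, and 230 d replicate 2 was the lowest of all 15. CXCR4 was 3.16-fold lower in the postnatal than in the fetal stages (log2 fold change -1.66, SE 0.30, adjusted p = 0.00061), and at least 4.08-fold lower at 230 d than at 120 d, taken against 50 (fitted log2 fold change -2.18, SE 0.47, adjusted p = 0.0047). The call between 230 d and 120 d was lost without 120 d replicate 1 (log2 fold change -2.14, adjusted p = 0.016) or 120 d replicate 2 (-2.02, adjusted p = 0.02), and with no filter on low signals (adjusted p = 0.011). The postnatal calls of CXCL12 and CXCR4 held under all 22 other settings. ACKR3, a second receptor of CXCL12 that takes it up and degrades it, is not a member of the family by its symbol and was looked up after its values were known. It was lower in the postnatal than in the fetal stages as well (log2 fold change -0.82, SE 0.19, adjusted p = 0.00285).

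CXCL14, a chemokine of connective tissue and epithelium that attracts monocytes and dendritic cells, was lowest in the newborn. CXCL14 signals were 308.4, 274.1 and 162.6 at 80 d, 107.1, 150.2 and 159.0 at 100 d, 95.9, 181.1 and 139.1 at 120 d, 37.6, 35.2 and 70.5 at 150 d, and 88.8, 106.2 and 127.3 at 230 d. The 80 d arrays lay above those of 100 d, and the 150 d arrays below those of every other stage. CXCL14 was at least 2.68-fold lower at 150 d than at 120 d, taken against 50 (fitted log2 fold change -1.56, SE 0.34, adjusted p = 0.0061), and 2.36-fold lower in the postnatal than in the fetal stages (log2 fold change -1.24, SE 0.22, adjusted p = 0.00049). The first call was lost without 120 d replicate 2 or 3 or 150 d replicate 1 or 2, with log2 fold changes of -1.35, -1.54, -1.43 and -1.38 and adjusted p-values of 0.027, 0.023, 0.021 and 0.027, and also with quantile normalization (adjusted p = 0.01) or no filter (0.015). The second held under all 22 other settings. At 230 d the arrays of CXCL14 were again above those of 150 d, with a log2 fold change of 1.23 and an adjusted p of 0.049.

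**Figure D3:**
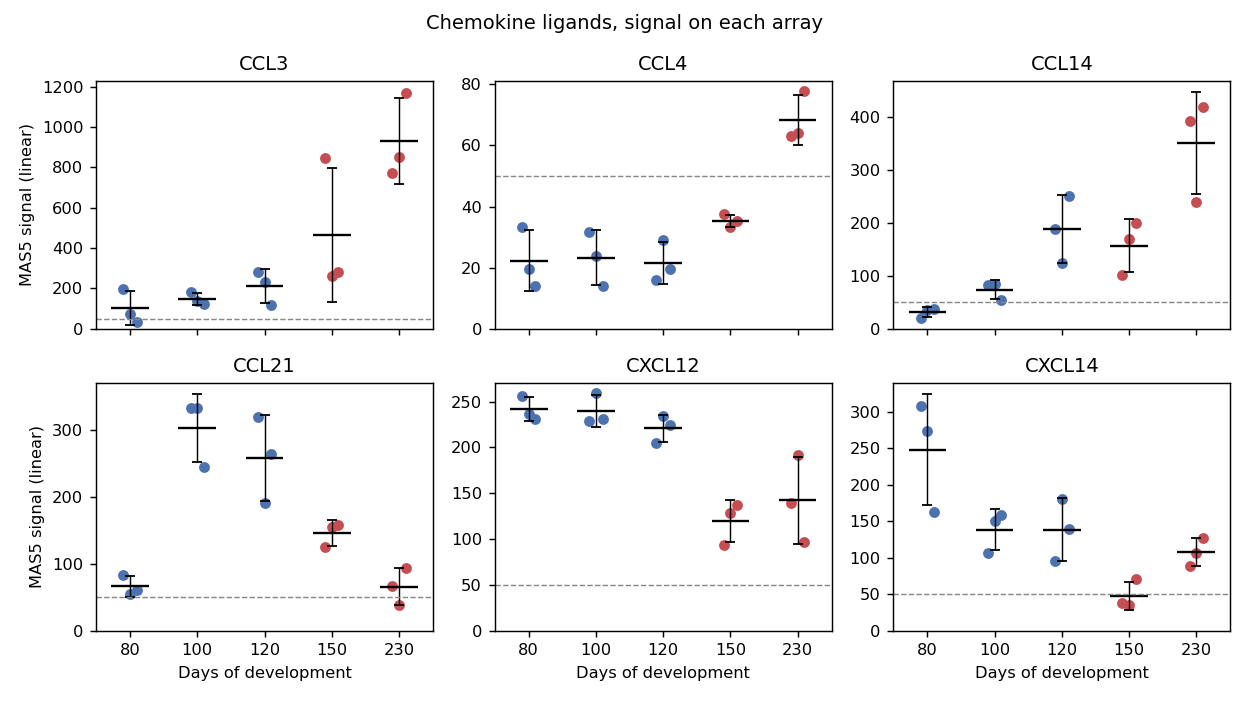
MAS5 signal (y axis, linear scale, a scale of its own for each gene) of 6 chemokine ligands on each array by stage in days of development (x axis); fetal arrays are blue and postnatal arrays red, the horizontal bars are means with the SD of 3 arrays, and the dashed line marks a signal of 50. CCL3, CCL4 and CCL14 were highest at 230 d, CCL21 at 100 d and 120 d, and CXCL12 and CXCL14 were lower in the postnatal stages, with an overlap of arrays for CXCL14.

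Other chemokine ligands stayed near the limit of 50 or did not differ. CCL8, a monocyte attractant, lay between 26.6 and 131.4 over the 15 arrays, with a log2 fold change of 0.43 in the postnatal over the fetal stages (adjusted p = 0.24). CCL2, CCL20, CCL22, CCL25 and CXCL17 were tested and not called in any comparison. CCL22, a ligand of CCR4, had signals of 42.9, 45.5 and 30.5 at 120 d, against 8.7, 18.7 and 26.6 at 100 d, without overlap but all under 50 (adjusted p = 0.68).

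CXCR5, the receptor by which B cells follow CXCL13 into follicles, gave low and scattered signals. They were 11.2, 15.2 and 9.3 at 80 d, 13.8, 6.5 and 8.1 at 100 d, 14.3, 42.2 and 18.5 at 120 d, 91.0, 56.9 and 38.8 at 150 d, and 8.6, 34.9 and 92.7 at 230 d. The 150 d arrays were mostly above the fetal ones, while 230 d replicate 1 was among the lowest of all. The postnatal stages were called higher (fitted log2 fold change 1.67, SE 0.45, adjusted p = 0.0085), with both means under 50 and thus no fold. The call was lost in 8 of the fits with 1 array left out (all 80 d replicates, 100 d replicate 2 and 3, 120 d replicate 1 and 3, and 230 d replicate 2), with adjusted p-values up to 0.02. It was also lost with no filter (adjusted p = 0.016), a trend and robust prior (0.018) or a block for the replicate number (0.015). Without 150 d replicate 1 or 2 or 230 d replicate 3 the gene no longer passed the filter. Its ligand CXCL13 never exceeded 14.3. CXCR3, a receptor of effector T cells whose ligands CXCL10 and CXCL11 were too low to test, ranged over 7.7 to 100.5 and was not called, nor was the neutrophil receptor CXCR1 (4.7 to 80.2).

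Among the interleukins, IL34, the second ligand of the macrophage growth factor receptor CSF1R, was higher after birth. IL34 signals were 32.1, 48.8 and 104.6 at 80 d, 90.5, 104.8 and 99.0 at 100 d, 77.0, 131.0 and 101.5 at 120 d, 104.0, 116.5 and 201.2 at 150 d, and 226.5, 269.2 and 219.4 at 230 d. All 3 arrays of 230 d lay above every other array, and those of 150 d overlapped with the fetal range. IL34 was 2.19-fold higher in the postnatal than in the fetal stages (log2 fold change 1.13, SE 0.24, adjusted p = 0.002), which held under all 22 other settings. The geometric mean signal of CSF1R, one of the myeloid markers, ranged over 70.1 to 134.5 in the fetal stages and came to 107.3 in newborns and 43.4 in lambs of 230 d.

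IL15, a cytokine of muscle fibres that sustains lymphocytes, followed another course. Its signals were 33.6, 23.0 and 24.0 at 80 d, 71.4, 38.1 and 81.8 at 100 d, 73.3, 138.6 and 114.4 at 120 d, 62.2, 41.4 and 40.5 at 150 d, and 97.3, 76.3 and 70.0 at 230 d. The arrays of 80 d were the lowest, and those of 150 d lay below those of both 120 d and 230 d. IL15 changed over the 5 stages in the moderated F test (adjusted p = 0.0027), a call lost without 80 d replicate 2 or 3 (adjusted p = 0.012 in each case). No single interval was called, with log2 fold changes of 1.19 at 100 d against 80 d (adjusted p = 0.24), -1.16 at 150 d against 120 d (adjusted p = 0.023) and 0.77 at 230 d against 150 d (adjusted p = 0.18). The postnatal and fetal means of IL15 were close, with a log2 fold change of 0.16 (SE 0.21, adjusted p = 0.57). The common cytokine receptor chain IL2RG, through which IL15 signals, ranged over 7.2 to 139.8 and was not called.

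IL10 and IL17A were called higher after birth at signals close to the limit. IL10, which restrains inflammation, had signals of 30.0, 34.4 and 50.2 at 150 d and 60.2, 50.9 and 58.9 at 230 d, against 15.3 to 35.9 over the 9 fetal arrays (log2 fold change 0.88, SE 0.21, adjusted p = 0.0035, both means under 50). The 230 d arrays stood above all fetal arrays, and the call was lost without 150 d replicate 3 (0.77, adjusted p = 0.011) and with a trend and robust prior (adjusted p = 0.037). IL17A, the cytokine of a class of helper T cells, had signals of 66.5, 62.8 and 55.1 at 150 d and 20.7, 100.9 and 96.6 at 230 d, against 5.5 to 45.3 over the fetal arrays. Only 230 d replicate 1 fell within the fetal range. IL17A was at least 1.20-fold higher in the postnatal stages, taken against 50 (fitted log2 fold change 2.18, SE 0.51, adjusted p = 0.0036), a call lost without 230 d replicate 2 (1.99) or 3 (2.001), with an adjusted p of 0.011 in both cases. The other 2 probe sets of IL17A had geometric stage means under 10 throughout and were not tested.

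**Figure D4:**
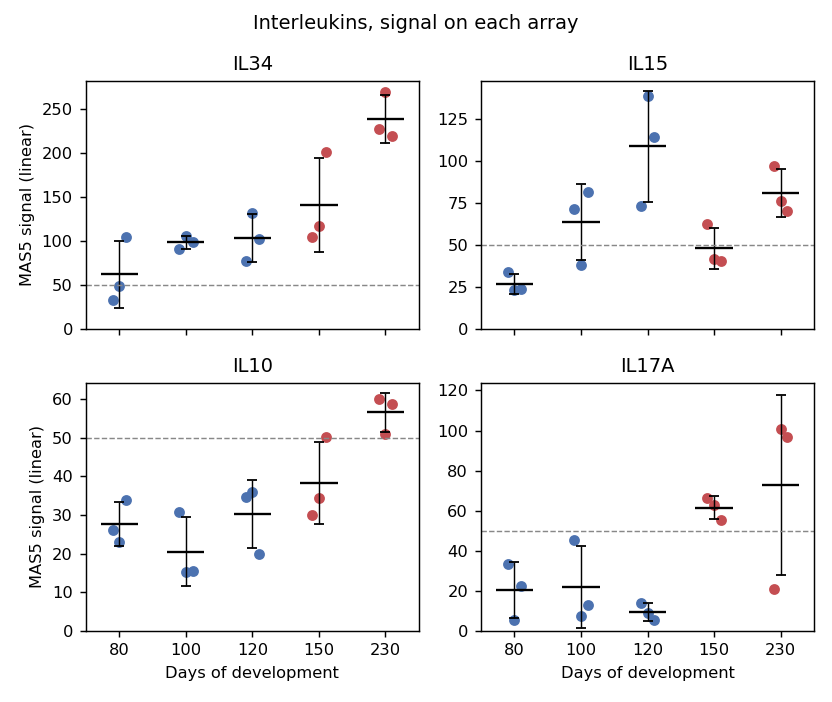
MAS5 signal (y axis, linear scale, a scale of its own for each gene) of 4 interleukins on each array by stage in days of development (x axis); fetal arrays are blue and postnatal arrays red, the horizontal bars are means with the SD of 3 arrays, and the dashed line marks a signal of 50. IL34 was highest on the 3 arrays at 230 d, IL15 lowest at 80 d, and IL10 and IL17A exceeded 50 on postnatal arrays only.

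The remaining interleukins did not pass the test. IL33, an alarm signal released by stromal cells, gave signals of 59.9 to 230.5 over the 15 arrays and a log2 fold change of 0.13 in the postnatal over the fetal stages (adjusted p = 0.73). IL18, IL1A and IL1B, the inflammatory members of the interleukin-1 family, and IL7, IL4 and IL13 lay on both sides of 50 and were not called. IL7, a growth factor of lymphocytes, had signals of 76.4, 63.8 and 76.0 at 230 d, against 38.4, 48.9 and 10.7 at 150 d (adjusted p = 0.28).

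Of the interleukin receptors 1 was called. IL13RA1, a chain of the receptors for IL13 and IL4, had signals of 190.4, 357.9 and 310.0 at 80 d, 304.3, 301.5 and 379.8 at 100 d, 214.7, 285.8 and 287.5 at 120 d, 137.4, 169.1 and 154.5 at 150 d, and 199.3, 224.3 and 257.4 at 230 d. The 150 d arrays were the lowest and those of 230 d lay within the fetal range. It was 1.54-fold lower in the postnatal than in the fetal stages (log2 fold change -0.62, SE 0.15, adjusted p = 0.005). That call was lost in 8 of the 15 fits with 1 array left out (80 d replicate 3, 100 d replicate 3, 120 d replicates 2 and 3, 150 d replicates 1 and 3, and 230 d replicates 1 and 2), with adjusted p-values up to 0.014. It was also lost with array medians set equal (log2 fold change -0.57, adjusted p = 0.017), quantile normalization (-0.43, adjusted p = 0.043) or no filter (adjusted p = 0.012). A second probe set of IL13RA1 gave a log2 fold change of 0.09 (adjusted p = 0.74), so the probe sets disagree.

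The receptor chains IL6R, IL17RC and IL10RB gave signals of 48.9 or more on all arrays and were not called. IL6R, the receptor of interleukin 6, lay between 87.4 and 191.8, and IL17RC, a chain of the IL17A receptor, between 51.5 and 116.2. IL10RB, a chain of the IL10 receptor, lay between 48.9 and 200.5. Their log2 fold changes in the postnatal over the fetal stages were 0.42 for IL6R (SE 0.19, adjusted p = 0.083), 0.35 for IL17RC (SE 0.17, adjusted p = 0.11) and -0.39 for IL10RB (SE 0.22, adjusted p = 0.17). A second probe set of IL6R had geometric means of 78.4 at 150 d and 19.5 at 120 d and a log2 fold change of 1.31 in the postnatal over the fetal stages (adjusted p = 0.038), which also missed the threshold. The other IL10 chain, IL10RA, was too low to test. IL21R, a receptor of lymphocytes, had signals of 26.5, 49.9 and 89.4 at 230 d, against 7.9, 7.3 and 4.6 at 150 d, without overlap, with both means under 50 and an adjusted p of 0.035.

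TNFRSF21, known as death receptor 6, had the lowest adjusted p of the family. Its signals were 427.6, 497.3 and 549.1 at 80 d, 572.6, 515.6 and 549.3 at 100 d, 716.7, 577.0 and 657.8 at 120 d, 198.4, 209.4 and 196.6 at 150 d, and 273.8, 242.6 and 354.9 at 230 d. Every postnatal array lay below every fetal array. TNFRSF21 was 3.22-fold lower at 150 d than at 120 d (log2 fold change -1.69, SE 0.18, adjusted p = 9.1e-05) and 2.32-fold lower in the postnatal than in the fetal stages (log2 fold change -1.21, SE 0.12, adjusted p = 3.7e-06), and both calls were kept whichever array was left out. At 230 d it was still 2.26-fold lower than at 120 d (adjusted p = 6e-04).

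TNFRSF25, or death receptor 3, which costimulates T cells, was lower on all postnatal arrays as well. TNFRSF25 signals were 225.6, 212.1 and 168.8 at 80 d, 214.6, 165.2 and 128.9 at 100 d, 199.6, 155.0 and 134.2 at 120 d, 82.8, 58.9 and 82.0 at 150 d, and 98.6, 69.2 and 64.7 at 230 d. It was 2.34-fold lower in the postnatal than in the fetal stages (log2 fold change -1.22, SE 0.16, adjusted p = 5.8e-05), which held under all 22 other settings. The separate contrasts at 150 d against 120 d (2.18-fold lower, adjusted p = 0.0077) and at 230 d against 120 d (2.11-fold lower, adjusted p = 0.008) lost their calls in 11 and 10 of the 15 fits with 1 array left out, with adjusted p-values up to 0.033 and 0.034. The first was kept only without 100 d replicate 1 or 3 or 230 d replicate 1 or 3, and the second only without 100 d replicate 1 or 3, 150 d replicate 1 or 2, or 230 d replicate 1. With no filter both were lost (adjusted p = 0.02 each), and the first also with array medians set equal (0.013) or quantile normalization (0.017). A second probe set of TNFRSF25 ran the other way between 230 d and 120 d (log2 fold change 2.83, adjusted p = 0.0103), with a geometric mean of 89.2 at 230 d and 12.6 at 120 d. In the postnatal over the fetal stages it gave a log2 fold change of 0.58 (adjusted p = 0.31). The 22 settings did not include this probe set. The direction for this gene therefore rests on the probe set chosen by its mean signal.

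TNFRSF12A, the receptor of the TNF ligand TWEAK that is induced in injured or denervated muscle, varied widely between animals. Its signals were 202.3, 408.7 and 407.2 at 80 d, 504.1, 202.3 and 296.6 at 100 d, 1307.3, 386.8 and 147.9 at 120 d, 641.5, 4398.1 and 3371.8 at 150 d, and 856.0, 225.6 and 432.0 at 230 d. Of the newborns 2 stood above all other animals, and the third lay below 120 d replicate 1. The log2 fold change was 2.33 at 150 d against 120 d (SE 0.84, adjusted p = 0.064) and -2.28 at 230 d against 150 d (SE 0.84, adjusted p = 0.13), neither beyond the spread between animals at the threshold used. A second probe set gave 2.80 at 150 d against 120 d (adjusted p = 0.085). TNFRSF1A, the main receptor of TNF itself, lay between 201.7 and 379.7 on all arrays, with a log2 fold change of 0.13 in the postnatal over the fetal stages (SE 0.16, adjusted p = 0.54).

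Of the 3 TNF ligands, TNFSF13, which sustains plasma cells, passed the filter. Its signals were 52.7, 64.8 and 54.9 at 150 d and 67.8, 79.8 and 20.5 at 230 d, against 3.9 to 45.6 over the fetal arrays, with an adjusted p of 0.042. TNFSF13B and TNFSF8 never reached 50, and neither did the receptor TNFRSF18. The decoy receptor TNFRSF6B ranged over 2.1 to 81.5 and was not called.

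**Figure D5:**
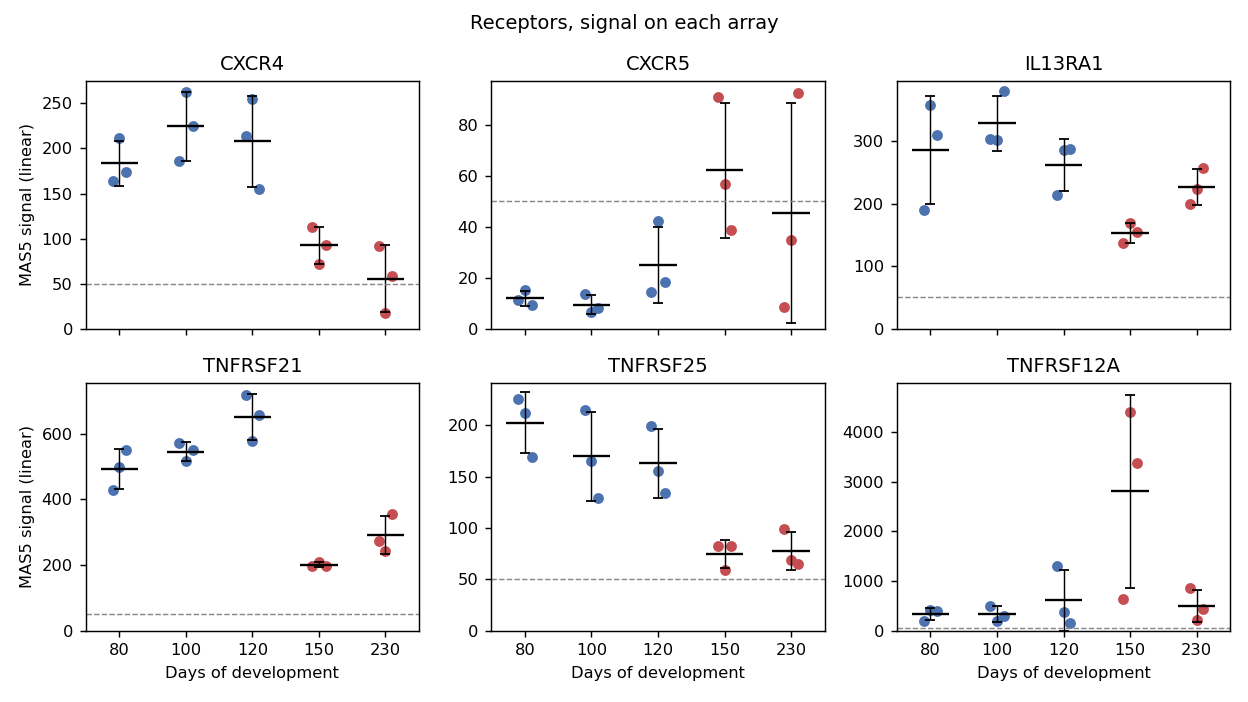
MAS5 signal (y axis, linear scale, a scale of its own for each gene) of 6 receptors on each array by stage in days of development (x axis); fetal arrays are blue and postnatal arrays red, the horizontal bars are means with the SD of 3 arrays, and the dashed line marks a signal of 50. The postnatal arrays of CXCR4, TNFRSF21 and TNFRSF25 lie below all fetal arrays, while TNFRSF12A reached 4398.1 and 3371.8 in 2 newborns and 641.5 in the other.

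Between neighbouring stages few members were called. At 100 d against 80 d only CCL21 was, or 1 of 44, with a background of 0.125% (0.106% higher). No member was called at 120 d against 100 d, where limma called 0.0563% of all tested probe sets. There 2 of the 44 members had an unadjusted p under 0.05 (background 1190 of 15998 probe sets) and 0 an adjusted p under 0.05 (background 0.181%). At 150 d against 120 d, the interval that holds birth, CXCL14, TNFRSF21 and TNFRSF25 were called, all lower, or 6.82% of the tested members against a background of 11.2% (6.77% lower). In that interval 14 of the 44 tested members did not overlap between the stages, against a background of 37.3%. Among the members without overlap that were not called, IL17A (log2 fold change 2.80, adjusted p = 0.024), IL21R (-1.70, adjusted p = 0.12) and CXCR4 (-1.17, adjusted p = 0.094) had the largest fitted changes. At 100 d against 80 d 5 members did not overlap (background 19.1%), at 120 d against 100 d 6 (16%) and at 230 d against 150 d 11 (24%). No member was called at 230 d against 150 d (background 2.03%). There limma gave 9 of the 44 members an unadjusted p under 0.05 (background 3648 of 15998 probe sets) and 3 an adjusted p under 0.05 (background 6.7%). Across the longer span from late fetal muscle to the lamb, at 230 d against 120 d, 5 members were called, namely CCL4, higher, and CCL21, CXCR4, TNFRSF21 and TNFRSF25, lower, or 11.4% against a background of 14.2% (5.79% higher and 8.41% lower).

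The moderated F test for any change over the 5 stages called 11 members, or 25% against a background of 25.8%. These were CCL3, CCL4, CCL14, CCL21, CXCL12, CXCL14, CXCR4, IL15, IL34, TNFRSF21 and TNFRSF25. The calls of CXCL12, CXCR4 and IL34 in this test were lost in 11, 10 and 10 of the 15 fits with 1 array left out, with adjusted p-values up to 0.015, 0.013 and 0.024. That of CXCL12 was kept without 120 d replicate 1, 150 d replicate 3 or 230 d replicate 2 or 3, that of CXCR4 without 100 d replicate 1, 120 d replicate 3, 150 d replicate 1 or 230 d replicate 1 or 2, and that of IL34 without 80 d replicate 3, 120 d replicate 1 or 2, or 150 d replicate 1 or 3. The call of CCL3 was lost without 230 d replicate 3 (adjusted p = 0.011), and that of CCL4 without 80 d replicate 2, 100 d replicate 2 or 120 d replicate 3 (adjusted p-values of 0.012, 0.01 and 0.011). With no filter the calls of CCL4, CXCL12, CXCR4 and IL34 were lost (adjusted p-values of 0.014, 0.017, 0.014 and 0.017), as was that of CCL4 with a trend and robust prior (0.059) and that of CXCL12 with array medians set equal (0.024) or quantile normalization (0.045). The call of CXCR4 was also lost with a block for the replicate number (adjusted p = 0.011). By geometric mean, 17 of the 44 tested members were highest at 230 d (38.6%, against 28.2% of all tested probe sets), and 17 were lowest at 80 d (38.6%, against 20.6%). This tally includes members that passed the filter only through the stage where they were highest, such as CCL4. It also ranks stage means under 50, such as those of IL21R, so no support for a rise is drawn from it.

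Downstream of these receptors, most signalling genes on the array were not called either. The counts that follow for the postnatal against the fetal stages stand against 34.5% of all tested probe sets called (13.3% higher and 21.3% lower), and none of the 5 lists had a larger share called. Of 11 tested genes of JAK and STAT signalling, STAT5B was called higher in the postnatal than in the fetal stages and PIAS1, an inhibitor of STAT factors, lower, with a median log2 fold change of -0.10 over the list. STAT5B, which also carries the growth hormone signal, had a log2 fold change of 1.31 at 230 d against 150 d (SE 0.24, adjusted p = 0.00806). Of 20 tested genes of TNF and NF-kappaB signalling, 5 were called after birth, all lower, namely the adaptors TRAF1, TRAF4 and TRAF5, the kinase RIPK1 and TAB1, which activates the kinase TAK1. TRAF5 had a log2 fold change of -1.91 at 230 d against 150 d (SE 0.25, adjusted p = 0.00153) and TAB1 of -0.77 at 150 d against 120 d (SE 0.16, adjusted p = 0.00515). The median log2 fold change of this list in the postnatal over the fetal stages was -0.07, against -0.13 over all tested probe sets.

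Of 11 tested genes of interleukin-1 and Toll-like receptor signalling, the kinase IRAK1 was called higher after birth and the adaptor TICAM2 lower, with a median of -0.55. IRAK1 had a log2 fold change of 1.46 at 150 d against 120 d (SE 0.26, adjusted p = 0.00186), and TLR3, a sensor of double-stranded RNA, of -2.13 (SE 0.51, adjusted p = 0.00995). Of 14 tested cytokines outside the family, 3 were called lower after birth, namely SPP1 (osteopontin), TGFB2 and TGFB3, and none higher, with a median of -0.06. Of 16 tested receptors of such cytokines, the growth hormone receptor GHR was called higher and ACKR3, KIT and TGFBR2 lower, with a median of -0.37. TGFBR2, the type II receptor of TGF-beta, had a log2 fold change of -1.81 at 150 d against 120 d (SE 0.31, adjusted p = 0.00142).

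Markers of other cell types moved at the same stages. The summed signal of 10 T cell markers on the array (of 11 listed) was 352.3 to 541.4 on the fetal arrays, 379 to 489.2 at 150 d and 751.6 to 1030.3 at 230 d, the stage at which CCL3, CCL4, CCL14 and IL34 were highest. Of 8 tested T cell genes CD3E was called higher in the postnatal than in the fetal stages, and CD3D was called lower at 150 d against 120 d (log2 fold change -2.13) and higher at 230 d against 150 d (3.21). CD4 had a geometric mean of 36.9 at 230 d, its lowest of the 5 stages. Of 7 general leukocyte genes, with a summed signal of 397.8 to 571.2 on the fetal arrays, 387.8 to 663.4 at 150 d and 529.1 to 1141.9 at 230 d, 4 were tested and LCP1 was called higher after birth, while PTPRC and the T cell gene CD5 never reached 50. The B cell genes MS4A1 and CD79A never did so either, at the stages where CXCR5 was called higher, while JCHAIN, a gene of plasma cells, was called higher at 150 d against 120 d (log2 fold change 1.03). The summed signal of 8 endothelial markers was 4154.6 to 4604.1 at 80 d, 5821 to 6899.5 in fetuses of 100 d, 6348.4 to 7259.7 at 120 d, 2294.8 to 4178 at 150 d and 3656.6 to 3774.5 at 230 d. The endothelial genes CDH5, PECAM1, TEK and TIE1 were called lower at 150 d against 120 d, where CXCL14, TNFRSF21 and TNFRSF25 were called lower, and CDH5, PECAM1 and TIE1 also at 230 d against 120 d, where CCL21 and CXCR4 were. The list was not uniform. ENG had geometric means of 350.9 at 120 d, 375.8 at 150 d and 404.8 at 230 d. EMCN (453.1 against 437.9) and VWF (220.5 against 204.2) were also higher at 230 d than at 120 d, while KDR and TEK were lower there without a call. The summed signal of 12 myeloid markers was 1157.8 to 1603.1 on the fetal arrays, 1001.4 to 1225.6 at 150 d and 765.4 to 1409.4 at 230 d. Of those, C1QA and FCER1G were called lower after birth. CD14 and C1QB had their highest geometric means at 230 d (129.8 and 66.6) and were not called.

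Connective tissue, fat, blood and muscle markers differed between stages as well. The summed signal of 7 fibroblast markers was 56085.5 to 81177 on the fetal arrays, 45802.7 to 74197.2 at 150 d and 44614.9 to 52953.4 at 230 d. Of these, 4 were called lower after birth, as CXCL12 and CXCL14 were, namely COL1A1 (log2 fold change -0.77), DCN (-0.68), FBN1 (-1.12) and LUM (-1.22), and FBN1 also at 150 d against 120 d. PDGFRA, COL1A2 and COL3A1 were not called after birth. Geometric means of PDGFRA were higher at 150 d (131.0) and 230 d (137.4) than at the fetal stages (63.0 to 93.3). Those of COL1A2 were highest at 150 d (21716.4) and lowest at 230 d (13601.2), and those of COL3A1 were lower after birth. The fat cell gene FABP4 was called higher after birth (2.37), and the red cell genes HBB (-7.08) and ALAS2 (-4.20) lower. All 9 skeletal muscle markers on the array were called higher after birth, with a summed signal of 73140.7 to 96433.1 at 80 d, 89108 to 121929.6 in fetuses of 100 d, 117714.4 to 147563.7 at 120 d, 173578.1 to 263005.6 at 150 d and 259446 to 349951.9 at 230 d. The part of these cell types in the results for the family was not tested.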

How the data were processed

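Values were the MAS5 intensities deposited by the authors, on a linear scale, 1 table of 15 arrays. By the methods, each array was scaled to a mean of 200, and the trimmed means were checked (197.8 to 198.7). No source used here names the MAS5 version. Stages came from the sample labels. Control probe sets (112) were removed, leaving 24016, of which 13292 had 1 gene symbol in the platform annotation, 86 several and 10638 none. Signals under 0.1 (2 values) were set to 0.1 before log2. The 15998 probe sets (66.6%) at 50 or more on at least 3 arrays were fitted with limma 3.58.1 in R 4.3.3 (lmFit, eBayes without trend, all 15 arrays, 10 residual degrees of freedom), with Benjamini-Hochberg adjustment within each of 7 comparisons over all of them at 0.01. Where 1 of the compared geometric means was under 50, a fold was given as a bound against 50, and where both were, no fold. On simulated data for the postnatal comparison over 15998 probe sets, 42% of 2-fold and 84% of 4-fold changes were recovered. The SE of the tested members in that comparison ran from 0.12 (TNFRSF21) to 0.69 (IL4R), so these rates do not hold for each member. Because there are 3 arrays per stage, their number limits the precision. The members, gene lists, comparisons and naming rule were chosen with earlier results of these data known. Named genes were members called in any comparison, the 3 of each role with the highest mean signal, partners of called members, the 3 largest uncalled but non-overlapping members per neighbouring interval, and list genes called between neighbouring stages. Alternatives were other scalings (array medians set equal, quantile), filters, an offset of 16, a threshold of 0.05, eBayes with trend, a replicate block, 6 arrays alone and each array left out.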

Additional observations from a re-analysis of the deposited data

How the results depend on the processing

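By the probe set chosen for it, no called member changed direction under the alternatives. Other probe sets of the called members were not part of that check. For TNFRSF25 and IL13RA1 another probe set gave log2 fold changes of 0.58 and 0.09 in the postnatal over the fetal stages, against -1.22 and -0.62. For 100 d against 80 d the count of 1 member became 0 with array medians set equal, quantile normalization, no filter, the replicate block or the 6 arrays of both stages alone, and was 0 to 1 with 1 array left out. For 150 d against 120 d the count of 3 became 1 with quantile normalization or no filter, 7 at an adjusted p under 0.05 and 0 with 6 arrays, and was 1 to 4 with 1 array left out (1 without 120 d replicate 2 or 3 or 150 d replicate 1 or 2). For 230 d against 150 d the count of 0 became 3 at 0.05. For 230 d against 120 d the count of 5 became 10 at 0.05 and 0 with 6 arrays, stayed at 5 with no filter and with a trend and robust prior although CXCR4 and TNFRSF25 (no filter) or CCL4 (trend) were lost, and was 2 to 6 with 1 array left out (2 without 120 d replicate 1 and 3 without 120 d replicate 2 or 3 or 230 d replicate 2 or 3). The postnatal count of 14 was 10 to 14 and that of any change, 11, was 6 to 10 with 1 array left out (6 without 80 d replicate 2, and 7 without 100 d replicate 2 or 230 d replicate 3). With 6 arrays fewer samples enter the spread, and for the other settings the cause was not tested.

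Replicate numbers recur at each stage, but the animals differ, and deviations of same-numbered arrays correlated at -0.05 to 0.21 (median 0.03 over 30 pairs), against -0.20 to 0.12 for other pairs, so the numbers were not taken as pairs. With the replicate block the counts of members called were 0 for 100 d against 80 d, 120 d against 100 d and 230 d against 150 d, 3 for 150 d against 120 d, 6 for 230 d against 120 d, 13 for the postnatal against the fetal stages and 11 for any change. CXCR5 was lost from the postnatal count and CXCR4 from that of any change. With array medians set equal, the median log2 fold change of all tested probe sets was -0.03 for 150 d against 120 d, against -0.15 as deposited, and -0.11 for 230 d against 150 d, against 0.07 as deposited. The calls at 150 d against 120 d over all probe sets were then 783 higher and 657 lower, against 706 higher and 1083 lower as deposited, and with quantile normalization 700 higher and 793 lower. Signals under 50 limit the results for CCL4, CXCR5, IL10 and IL17A most.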
